A study of Mus musculus with 6 samples.

Results

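Iah1 and the genes around it on mouse chromosome 12 were followed, probe set by probe set, in liver RNA of A/J and A/J-12SM mice. Each array carries short probes in groups called probe sets, designed for 1 transcript or for related ones, and the signal of a probe set summarises its probes on 1 array. The genes were Itgb1bp1, Cpsf3, Iah1, Adam17, Ywhaq and Taf1b. Every probe set whose annotation names exactly 1 of these 6 genes was taken, which gave 19 of the 45037 probe sets that are not array controls. No probe set names any of them together with another gene. The genes were chosen by the strain difference in signal in these same arrays, so that difference is given for them as a description. How many of their probe sets passed the test that was run on the whole array is given only as a count, which is no evidence for them.

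Livers came from male mice, and both strains had eaten the high-fat diet during 7 weeks. A/J is the inbred control strain. A/J-12SM is a consomic strain, that is, A/J mice in which chromosome 12 comes from the SM/J strain. Each of the genes listed above thus lies on the exchanged chromosome. In these arrays any effect of 1 locus cannot be told apart from that of the rest of the chromosome. There were 3 one-colour Affymetrix arrays for each strain, and each was hybridized with RNA combined from 3 mice. A replicate is therefore a group of mice, and the spread between single animals was not measured. The labels do not state the age of the mice. The study used the strains to search for the genes of Fl1sa, a fatty liver locus of chromosome 12. It named Iah1 and Rrm2 as candidates in the liver, from array genes chosen by a cutoff on the fold change. Its methods also name a test of strain means, which is not stated as the rule for array genes. That test was run on the arrays here as an alternative. By real-time RT-PCR the study found Iah1 mRNA higher in A/J-12SM than in A/J liver. It found the same in R2, a congenic strain with only the centromeric part of the SM/J chromosome 12, which is not on these arrays. It also reported sequence differences between A/J and SM/J that change amino acids of Iah1.

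Chromosome substitution strains are used to find genes whose RNA level follows the allele at their own locus. Adjacent genes can share regulatory sequence, so a strain difference at a candidate gene is usually read together with its neighbours. An array adds another difficulty, because the probes were designed on 1 reference sequence and a sequence difference between strains beneath a probe can alter its signal without any change in the RNA. The probe sequences and the strain variants beneath them were not analysed here, and their part in the values below was not tested.

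All but Taf1b adjoin each other. In GRCm38.p6 these genes cover 150 kb of chromosome 12, from 21267246 to 21417436, and they are the 5 protein-coding genes annotated wholly within this stretch. The end of another, Asap2 (21111368 to 21270171), runs 2926 bases into it and overlaps the 3′ end of Itgb1bp1. Itgb1bp1 (21267246 to 21286292, minus strand) and Cpsf3 (21286273 to 21315056, plus strand) are transcribed away from each other and overlap by 20 bases. Iah1 (21316362 to 21323607, plus strand) begins 1305 bases after the end of Cpsf3. Its 3′ end overlaps that of Adam17 (21323509 to 21373632, minus strand) by 99 bases. Ywhaq (21390329 to 21417436, minus strand) lies 16696 bases farther on. Taf1b (24498581 to 24558571, plus strand) was listed with these genes but begins 3182 kb after the start of Iah1, and 49 annotated genes lie wholly between it and Ywhaq. It is thus not an immediate neighbour and is described apart.

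The deposited signals were lower over the whole array in A/J-12SM than in A/J liver, with trimmed means of 171 to 186 against 201 to 213. The log2 signals were therefore quantile normalized, which gives all arrays 1 distribution. Without it the median difference between strains over all probe sets was -0.22 on the log2 scale. All differences below are normalized log2 signals, A/J-12SM minus A/J, unless they are said to be deposited signals, and SE is the standard error from limma. Probe sets at or above the median signal of the array, called bright here, had a typical SD between replicate arrays of 0.21 on the log2 scale, against 0.86 for dimmer ones. Of the 19 probe sets, 18 were bright. As a check of the tissue, Alb, the albumin gene, had a log2 signal of 13.90 ± 0.05 (SD, n = 3) in A/J against 14.01 ± 0.05 (SD, n = 3) for A/J-12SM.

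Iah1 had the largest difference of the 6 genes, 2.27 at 1454898_s_at. Its 3 probe sets all had higher means in A/J-12SM liver, 2 of them without overlap of the strains. The third differed by 0.74, less than the Itgb1bp1 probe set and some of those of Ywhaq. Iah1 encodes an esterase named after a yeast enzyme that hydrolyses isoamyl acetate and other acetate esters. The RefSeq promoter table places its transcript start at 21316392, inside the gene's outer bound of 21316362, so the last bases shown, with the third GC box, lie within that bound. The 250 bases of the C57BL/6J reference before the tabled start, at chr12:21316142-21316391 on the plus strand, are shown because they are the sequence nearest to the start of the gene on which the others are centred. The reference is neither A/J nor SM/J. Capitals mark the GC box GGGCGG, searched on both strands, which matched 3 times on the minus strand and so is read here as its complement.
Iah1 upstream region: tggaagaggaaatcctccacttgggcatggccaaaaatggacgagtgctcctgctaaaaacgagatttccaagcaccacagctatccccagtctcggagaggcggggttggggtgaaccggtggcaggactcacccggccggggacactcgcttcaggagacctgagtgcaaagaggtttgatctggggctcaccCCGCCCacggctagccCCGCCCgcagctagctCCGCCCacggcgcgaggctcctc

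At the Iah1 probe set 1429119_at the deposited signals were 864, 882 and 914 in the A/J arrays against 1874, 2571 and 1842 in those of A/J-12SM. All 3 A/J-12SM arrays lay far above all 3 A/J arrays, and the second A/J-12SM array was the highest. After normalization the log2 signal was 9.68 ± 0.08 (SD, n = 3) in A/J against 11.11 ± 0.24 (SD, n = 3) for A/J-12SM, a difference of 1.43 (SE 0.12) or 2.69-fold. The lowest A/J-12SM array stood 1.20 above the highest A/J array on the log2 scale.

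The Iah1 probe set 1454898_s_at gave deposited signals of 432, 505 and 466 in A/J against 1654, 2248 and 2041 in A/J-12SM liver. The order of the A/J-12SM arrays was not the same as at the first probe set, as only the second array was highest at both. The normalized log2 signal was 8.76 ± 0.16 (SD, n = 3) against 11.02 ± 0.18 (SD, n = 3), a difference of 2.27 (SE 0.12) or 4.81-fold. Both probe sets carry the same gene name, but their log2 differences were 0.84 apart, more than the sum of their SEs. Over the 6 arrays they followed each other closely (Pearson's r = 0.99), mostly through the gap between strains, since r was 0.64 once each strain's mean was removed.

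The third Iah1 probe set, 1453471_at, was dimmer and did not separate the strains. Its deposited signals ran from 37.1 to 75.3 in A/J and from 50.1 to 107 in A/J-12SM liver. The normalized log2 signal was 5.59 ± 0.43 (SD, n = 3) against 6.33 ± 0.52 (SD, n = 3), and the difference of 0.74 (SE 0.33) rested most on the third A/J-12SM array, without which it was lowest, at 0.47.

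**Figure D1:**
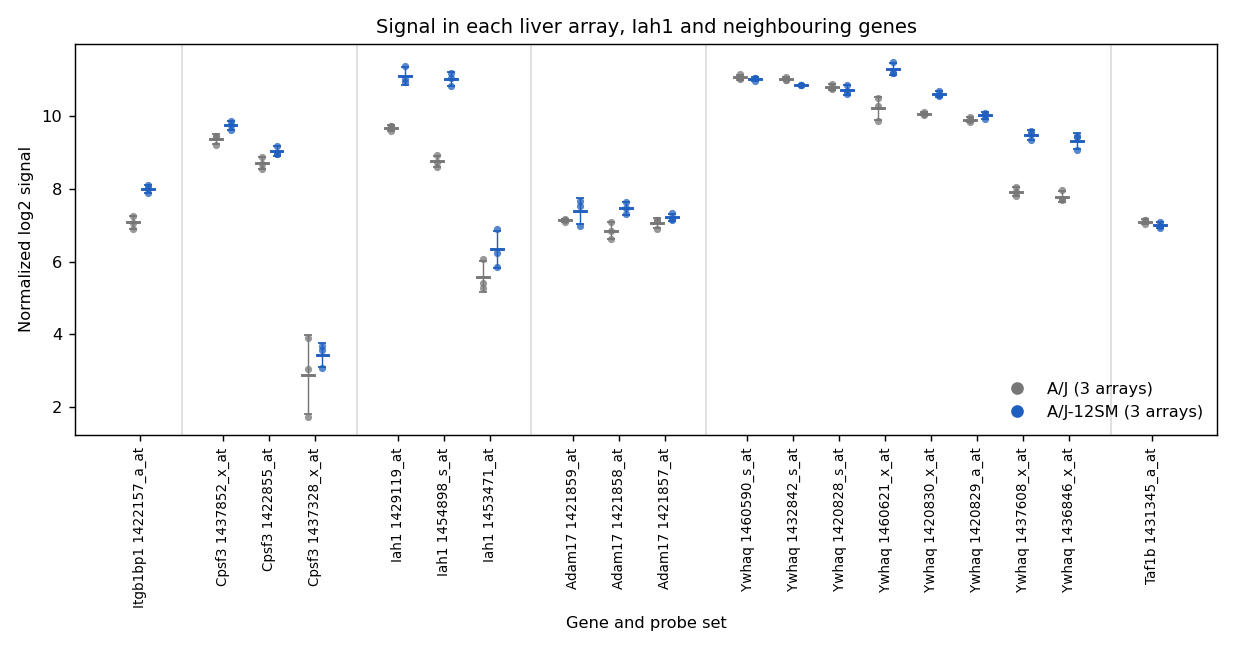
Normalized log2 signal (y axis) of each of the 19 probe sets of the 6 genes (x axis, in the order of the genes along chromosome 12), with 1 point for each array, a thick bar for the mean and thin bars for the SD of 3 A/J (grey) and 3 A/J-12SM (blue) arrays. The strains stand apart most at the Iah1 probe sets 1429119_at and 1454898_s_at and at the Ywhaq probe sets 1437608_x_at and 1436846_x_at, while the Taf1b probe set shows them at nearly the same height.

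Itgb1bp1 and Cpsf3, on the side of Iah1 towards the centromere, also had higher mean signals in A/J-12SM liver. Itgb1bp1 encodes a protein that binds the cytoplasmic tail of β1 integrin and restrains its activation, and Cpsf3 encodes the endonuclease that cuts pre-mRNA at the polyadenylation site. The bounds given above are those of the whole gene. The RefSeq promoter table gives 1 start for each gene, at 21286284 for Itgb1bp1 and 21286297 for Cpsf3, on opposite strands and with 12 bases between them, so the transcripts counted from these starts do not overlap. The stretch between these starts, with 30 bases on either side, is shown because both genes begin in it. It lies at chr12:21286255-21286326 and is written along the plus strand of the C57BL/6J reference. Capitals mark the only match there to the core of the motif of the transcription factor NRF1, on the minus strand.
Itgb1bp1 and Cpsf3 shared start region: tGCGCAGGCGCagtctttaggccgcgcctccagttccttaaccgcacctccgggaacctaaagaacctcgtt

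The single Itgb1bp1 probe set, 1422157_a_at, had deposited signals of 137, 145 and 159 in A/J against 208, 251 and 249 in A/J-12SM liver. The strains did not overlap, before or after normalization. The normalized log2 signal was 7.08 ± 0.17 (SD, n = 3) against 8.0 ± 0.11 (SD, n = 3), a difference of 0.92 (SE 0.14) or 1.89-fold, with a gap of 0.62 between the nearest arrays of the 2 strains. As only 1 probe set measures this gene, the value has no second reading within the array.

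Differences at Cpsf3 were smaller and depended on the scaling of the arrays. At 1437852_x_at the deposited signals were 768, 618 and 767 in A/J against 697, 830 and 887 in A/J-12SM liver, which overlap. After normalization the strains no longer overlapped, at 9.37 ± 0.14 (SD, n = 3) against 9.75 ± 0.13 (SD, n = 3), a log2 difference of 0.38 (SE 0.11), with 0.16 from the deposited signals.

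Cpsf3 probe set 1422855_at behaved in the same way, with deposited signals of 420, 432 and 510 in A/J against 446, 479 and 539 in A/J-12SM liver. Its normalized difference was 0.33 (SE 0.12), against 0.11 from the deposited signals, and the nearest arrays of the strains were only 0.07 apart. The third Cpsf3 probe set, 1437328_x_at, was the only dim one of the 19. Its deposited signals ran from 4.08 to 14.1 in A/J and from 8.51 to 11.1 in A/J-12SM liver, and its log2 difference of 0.55 (SE 0.72) was smaller than its own error.

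Adam17, whose 3′ end overlaps that of Iah1, separated the strains at 1 of its 3 probe sets. Adam17 encodes a membrane metalloprotease that releases tumour necrosis factor and several receptors and growth factors from the cell surface. At 1421858_at the deposited signals were 112, 126 and 141 in A/J against 178, 173 and 143 in A/J-12SM liver. The strains did not overlap but came close, as the lowest A/J-12SM array was little above the highest A/J array. The normalized log2 signal was 6.85 ± 0.24 (SD, n = 3) against 7.47 ± 0.17 (SD, n = 3), a difference of 0.62 (SE 0.17) or 1.53-fold.

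The other Adam17 probe sets overlapped between strains. At 1421859_at the deposited signals were 163, 153 and 141 in A/J against 163, 196 and 114 in A/J-12SM liver, and the normalized log2 difference was 0.26 (SE 0.19). Its lowest array was the third of A/J-12SM, and without that array the difference was 0.46. In that array the ratio of the 5′ to the 3′ actin control signal, a sign of RNA integrity, was 0.423. It was 0.553 and 0.561 in the other A/J-12SM arrays and 0.571 to 0.590 in those of A/J, so it was lower in all 3 A/J-12SM arrays, and its part in this and the other values was not tested. At 1421857_at the normalized difference was 0.15 (SE 0.15) and that of the deposited signals was -0.08, so the direction depended on the scaling. All 3 Adam17 probe sets trace to 1 source sequence in the annotation, and their differences ranged from 0.15 to 0.62.

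From Itgb1bp1 to Adam17 the difference was above 0 at 10 of 10 probe sets, against 22539 of all 45037, with a range of 0.15 to 2.27 and a median of 0.58. In the deposited signals 1 of the 10, 1421857_at of Adam17, was below 0. The A/J-12SM arrays lay above those of A/J without overlap at 6 of the 10, while over all probe sets tested 6.13% were higher and 5.83% lower without overlap. At Ywhaq 5 probe sets had a difference above 0 and 3 below, so the count from Itgb1bp1 to Ywhaq was 15 of 18. The genes were chosen by this same difference, and the count depends on where the stretch is ended. These counts are therefore a description and no evidence for a local block.

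Ywhaq encodes 14-3-3 theta, a member of the family of adaptor proteins that bind phosphorylated serine and threonine residues in many signalling and metabolic proteins. Its 8 probe sets fell apart by their design. In the array maker's naming, _x_at marks a set in which some probes can match other sequences too, _s_at a set whose probes are shared by several transcripts, and _a_at a set for several transcripts of 1 gene. The 4 Ywhaq probe sets ending in _x_at had differences of 0.54 to 1.56 with a median of 1.30. The 4 others had differences of -0.17 to 0.12 with a median of -0.07.

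The largest Ywhaq difference was at 1437608_x_at, with deposited signals of 273, 239 and 284 in A/J against 580, 703 and 724 in A/J-12SM liver. The normalized log2 signal was 7.93 ± 0.12 (SD, n = 3) against 9.49 ± 0.13 (SD, n = 3), a difference of 1.56 (SE 0.11) or 2.95-fold. All 3 A/J-12SM arrays stood clear of the A/J arrays, with a gap of 1.29 on the log2 scale.

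Ywhaq probe set 1436846_x_at gave 282, 221 and 222 in A/J against 478, 673 and 632 in A/J-12SM liver, a normalized log2 difference of 1.52 (SE 0.14) or 2.88-fold. At 1460621_x_at the deposited signals were 1040, 1284 and 1571 in A/J against 2105, 2274 and 2802 in A/J-12SM liver, with a normalized difference of 1.08 (SE 0.16). At 1420830_x_at they were 1163, 1148 and 1159 against 1363, 1458 and 1573, with a normalized difference of 0.54 (SE 0.08). In all 4 the A/J-12SM arrays lay above the A/J arrays without overlap, although the size ranged from 1.45-fold to 2.95-fold.

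The remaining Ywhaq probe sets went the other way or stayed level. At 1432842_s_at the deposited signals were 2373, 2097 and 2230 in A/J against 1673, 1806 and 1743 in A/J-12SM liver, and the normalized log2 signal was 0.17 lower in A/J-12SM liver (difference -0.17, SE 0.08), the only one of the 19 probe sets lower without overlap. At 1460590_s_at the signals of 2285, 2151 and 2456 in A/J stood above those of 1810, 2037 and 2025 in A/J-12SM liver as deposited, but overlapped after normalization, with a difference of -0.06 (SE 0.08) that became 0.01 when each array was centred on its median. At 1420828_s_at the difference was -0.08 (SE 0.09).

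Probe set 1420829_a_at of Ywhaq had a difference of 0.12 (SE 0.09), or -0.09 from the deposited signals. It shares 1 source sequence in the annotation with 1420828_s_at and 1420830_x_at. The 3 designs from that sequence thus gave 0.12, -0.08 and 0.54. Among the probe sets of Ywhaq, 1432842_s_at ran opposite to each of the 4 _x_at sets over the 6 arrays (Pearson's r from -0.98 to -0.91), but this came largely from the gap between strains, since r ran from -0.82 to 0.71 once each strain's mean was removed. The sets 1437608_x_at and 1436846_x_at ran together (r = 0.99, or 0.52 without the strain means).

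Sequences that resemble Ywhaq lie elsewhere in the genome. The annotation lists 3 pseudogenes, Ywhaq-ps3 on chromosome 4 (70247954 to 70249435), Ywhaq-ps2 on chromosome 5 (114828553 to 114829230) and Ywhaq-ps1 on chromosome 7 (97591487 to 97592450). None lies on chromosome 12. Whether the probes of the _x_at or the _s_at sets match them was not tested, as the probe sequences were not analysed here. The Ywhaq values from both kinds of set are therefore uncertain as readings of the gene. Matches of the Iah1 set 1454898_s_at to other transcripts were not tested either. On the whole array 5.42% of the probe sets end in _x_at, against 6 of the 19 described here, and their median difference between strains was 0.01.

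**Figure D2:**
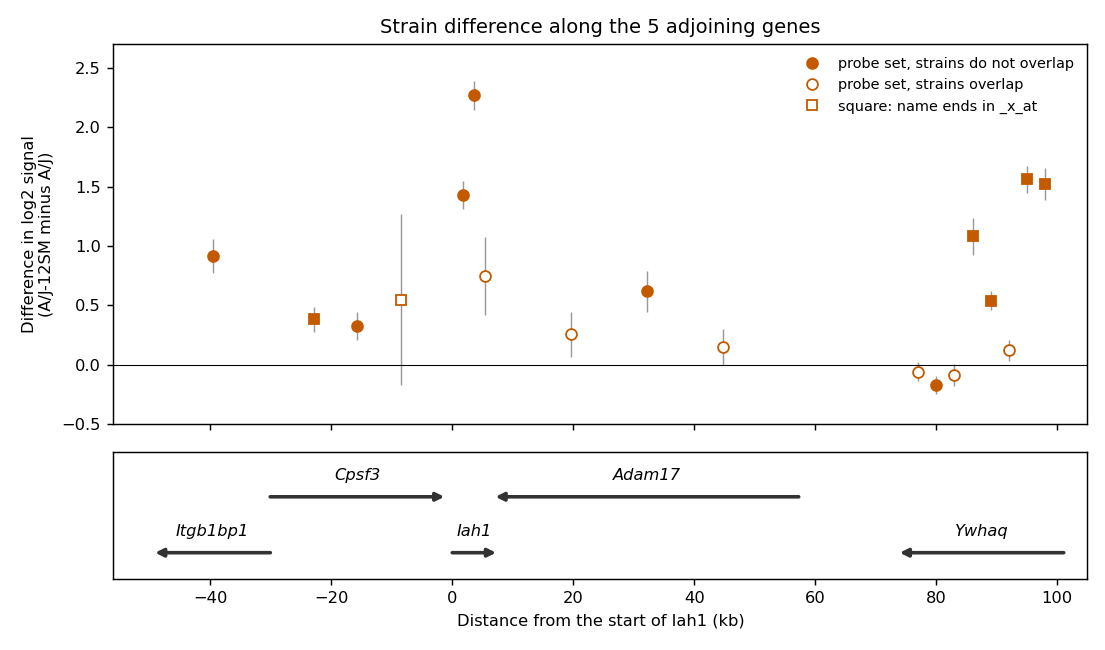
Difference in normalized log2 signal between A/J-12SM and A/J liver (upper panel, y axis, with SE bars) of the 18 probe sets of the 5 adjoining genes, drawn above arrows that show the genes and their direction of transcription, against the distance from the start of Iah1 in kb (x axis). Points are spread evenly over their gene because probe positions were not used, filled points have no overlap between strains, and squares are sets ending in _x_at; at Ywhaq the 4 squares lie at 0.54 or higher and the 4 circles between -0.17 and 0.12.

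Taf1b, which encodes a subunit of the selectivity factor that brings RNA polymerase I to ribosomal RNA genes, had no separation of the strains. Its probe set 1431345_a_at gave deposited signals of 160, 141 and 147 in A/J against 108, 133 and 113 in A/J-12SM liver. The normalized log2 signal was 7.10 ± 0.07 (SD, n = 3) against 7.00 ± 0.08 (SD, n = 3), a difference of -0.10 (SE 0.15). The deposited signals did not overlap and differed by -0.34, where the median over all probe sets was -0.22.

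Counted over all 6 genes, 15 of the 19 probe sets had a difference above 0 and 4 below, with a median of 0.54. The strains did not overlap at 11 of them, 10 higher (6.13% of all probe sets) and 1 lower (5.83% of all) in A/J-12SM liver. With limma and Benjamini-Hochberg adjustment over all 45037 probe sets, 4 of the 19 passed an adjusted p of 0.05, against 0.0555% of all probe sets (25 in number), 0.0244% higher and 0.0311% lower in A/J-12SM liver. These were the Iah1 probe sets 1429119_at and 1454898_s_at and the Ywhaq probe sets 1437608_x_at and 1436846_x_at, all higher in A/J-12SM liver. Without A/J replicate 2 the last of these no longer passed, and with 1 prior variance instead of a trend on the signal, or with the methods' t-test after the same adjustment, 0 of the 19 did.

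Set against the size of differences elsewhere on the array, the members were spread widely. The Iah1 probe set 1454898_s_at differed by more than 99.98% of the 22519 bright probe sets, and 1429119_at by more than 99.8%. Itgb1bp1 stood above 99.1% of them. The values were 88.2% and 83.8% for the bright Cpsf3 probe sets, from 53.3% to 96.9% for Adam17 and 38.4% for Taf1b. At Ywhaq the same figure ran from 23.2% at 1460590_s_at to 99.9% at 1437608_x_at, so a reading of this gene depended on which of its probe sets was taken.

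**Figure D3:**
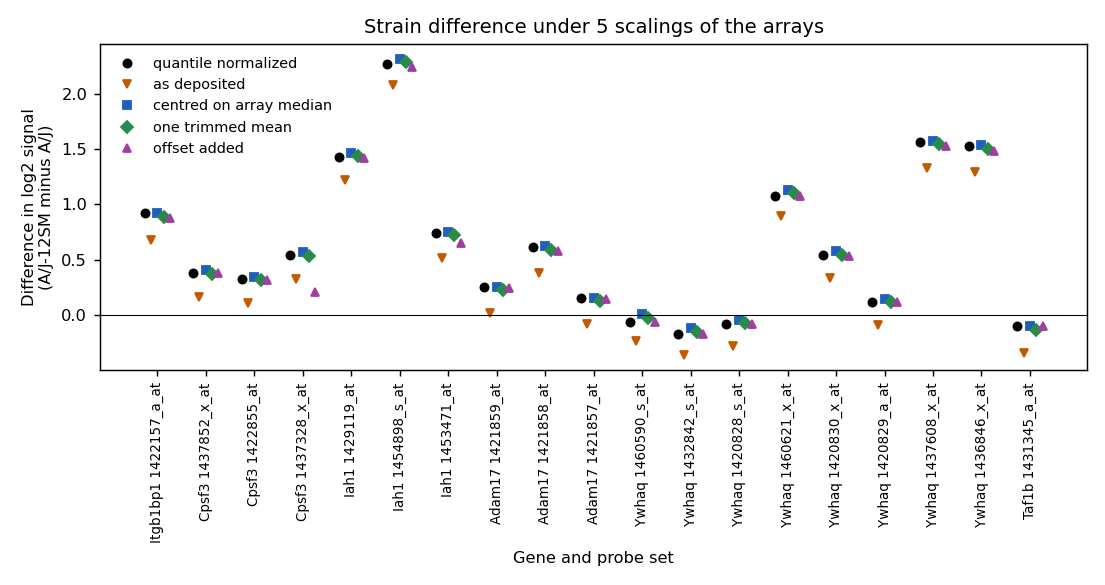
Difference in log2 signal between A/J-12SM and A/J liver (y axis) of the 19 probe sets (x axis) when the signals were quantile normalized, left as deposited, centred on each array's median, scaled to 1 trimmed mean or given an offset before log2, with 1 symbol for each scaling. The signals as deposited gave lower differences than quantile normalization throughout and changed the direction at 1421857_at of Adam17 and 1420829_a_at of Ywhaq, and centring on the median changed it at 1460590_s_at of Ywhaq, while the Iah1 and Itgb1bp1 probe sets stayed above 0.5 under each scaling.

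The nearest measured genes beyond the 6 had smaller differences than the Iah1 probe sets that separated the strains. For the 8 nearest on each side, which start between -3.97 and 3.78 Mb from the start of Iah1, the differences ranged from -0.95 to 0.29 with a median of 0.09, each gene read by its probe set with the highest mean; the median was -0.08 when all probe sets of a gene were averaged. None of the 16 passed with limma and Benjamini-Hochberg adjustment, against 0.0660% of all genes read in this way. At an unadjusted p of 0.05, which 6.23% of all probe sets passed with limma and 5.84% with the methods' t-test, either test passed 3 of the 16. With limma these were Hpcal1, Gm9222 and Rrm2, all with lower values in A/J-12SM liver and named here after their values were seen. Rrm2, which the study also named as a liver candidate, had a difference of -0.95 at the probe set used. Its other probe sets, both dim and with overlap of the strains, gave -0.22 and -0.42. Without overlap of the strains were 4 of the 16, against 12.3% of all genes.

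Nearest on the side of Itgb1bp1 was Asap2, at -205 kb from the start of Iah1, which encodes a GTPase-activating protein for ADP-ribosylation factors. It had a difference of 0.27 (SE 0.29) with overlap of the strains, and its other, dim probe set gave -1.34. Farther out on that side, 1700030C10Rik and Gm6943 were both dim, with differences of -0.13 (SE 0.98) and 0.09 (SE 0.38). Between Ywhaq and Taf1b only 1 of 14 protein-coding genes was measured, 2410018L13Rik, which was dim and gave 0.29 (SE 0.62). Past Taf1b the values were 0.07 (SE 0.40) for Grhl1, 0.13 (SE 0.23) for Klf11 and 0.23 (SE 0.17) for Cys1, all with overlap. The array thus left the distance between Ywhaq and Taf1b almost without a reading.

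**Figure D4:**
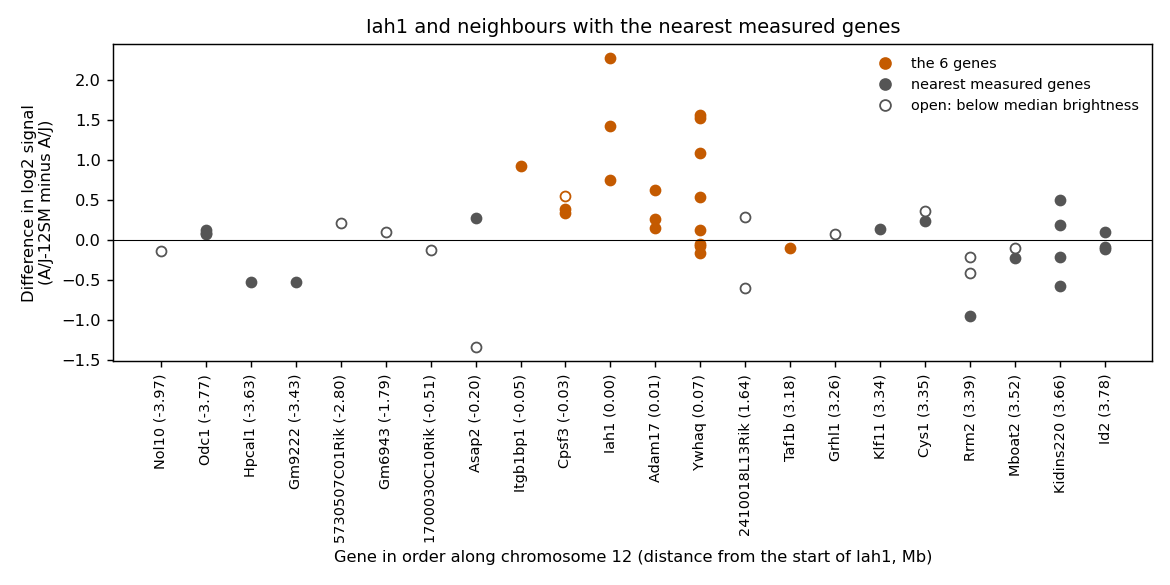
Difference in normalized log2 signal between A/J-12SM and A/J liver (y axis) for every probe set of the 6 genes (orange) and of the 16 nearest measured genes (grey), placed in gene order along chromosome 12 with the distance from the start of Iah1 in Mb beside each name (x axis, not to scale). Open points are below the median brightness of the array; the highest grey point is 0.49, at Kidins220, and the Iah1 points are at 0.74, 1.43 and 2.27.

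The promoters of the 6 genes were taken from RefSeq as 300 bases around each annotated start in GRCm38.p6. For comparison, the 32851 windows of that full length in the same table were read. All 6 promoters were matched by gene identifier. Each was richer in G and C than the median window of 52.7%, from 58.0% at Itgb1bp1 to 70.0% at Adam17, and held 12 to 30 CpG dinucleotides against a median of 7. The TATA box letters TATAAA, which 13.6% of all windows hold, were in none of them. The GC box GGGCGG was in the windows of Iah1 (3 matches) and Adam17 (1 match), and in 35.7% of all windows. The NRF1 core motif was found at Itgb1bp1 and Cpsf3, as the same site in overlapping windows, and in 4.60% of all windows. The CCAAT box, CCAAT, was found only at Ywhaq among the 6 (2 matches) and in 37.4% of all windows. The ETS core CCGGAAG was found at Itgb1bp1 (2 matches), Cpsf3, Adam17 and Taf1b (1 match each) and in 8.86% of all windows. Motifs were searched on both strands, and these are matches of letters in 1 reference strain.

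Genes that work with the products of the 6 were also read on the arrays. In all 57 of 61 listed genes were measured, in 6 lists of known partners of Itgb1bp1, Cpsf3, Adam17 (its regulators and its substrates), Ywhaq and Taf1b, with no such list for Iah1, with a median difference of -0.02 against -0.01 over all genes. None passed with limma and Benjamini-Hochberg adjustment. At an unadjusted p of 0.05, 2 passed with limma (Hbegf and Il6ra) and 0 by the methods' t-test, against 6.23% and 5.84% of all probe sets. No overlap was seen at 5, or 8.77%, against 12.3% of all genes. Among the 50 bright ones the differences lay between -0.30 and 0.39.

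The other 14-3-3 genes, which encode the proteins that pair with the Ywhaq product, had 1 of 6 values above 0 and a median of -0.06; Ywhah had the largest bright difference, -0.15 (SE 0.11). The 3′ end processing genes that act with Cpsf3, such as the other cleavage and polyadenylation factor subunits, had 7 of 16 above 0 and a median of -0.01, and the largest difference was 0.18 (SE 0.13) at Cpsf6. For the RNA polymerase I genes that act with Taf1b the count was 6 of 10 and the median 0.04, with 0.23 (SE 0.18) at Taf1a.

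Regulators of Adam17 had 2 of 6 values above 0 and a median of -0.12, with -0.30 (SE 0.20) at Frmd8, a partner of the inactive rhomboid proteins that carry the protease to the cell surface. Substrates of Adam17 had 5 of 9 above 0 and a median of 0.10, which was -0.15 when all probe sets of each gene were averaged. The strains did not overlap at Il6ra, which encodes the receptor of interleukin 6, with a difference of 0.39 (SE 0.17) that did not pass (adjusted p = 0.80 by limma). Partners of Itgb1bp1 had 5 of 10 above 0 and a median of 0.00, with 0.18 (SE 0.11) at the kinase gene Rock1.

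The study links Cd36 and Dgat2 to Iah1, citing its earlier work in which overexpressed Iah1 suppressed the mRNA of both in a cell line. These arrays compare livers of the strains and do not repeat that experiment. Cd36, which encodes a fatty acid transporter, was lower in A/J-12SM liver (difference -1.41, SE 0.16, adjusted p = 0.0203 from limma). Dgat2, which encodes the enzyme of the last step of triglyceride synthesis, had a difference of -0.01 (SE 0.09). The call at Cd36 was lost when the arrays were centred on their medians, with 1 prior variance, and when any array other than A/J-12SM replicate 1 was left out.

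The genes whose signals ran most like those of 1429119_at of Iah1 over the 6 arrays were sought among 11036 genes with a bright probe set. Thap7 on chromosome 16 had the highest Pearson's r (0.983), followed by Ino80d on chromosome 1 (0.981), Gpcpd1 on chromosome 2 (0.979), Cyb5d1 on chromosome 11 (0.977) and Rab3gap1 on chromosome 1 (0.976). Their own strain differences ranged from 0.08 at Rab3gap1 to 0.71 at Gpcpd1. With 6 arrays that fall into 2 strains, a gap between strains can raise such values, and r within strains was not computed for these genes. They were picked as the highest of 11036 and are given as a description.

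Other cell types of the liver were read through their marker genes. The 9 markers of Kupffer cells and macrophages all had lower means in A/J-12SM liver (median -0.30). Their summed normalized signals were 5507 to 6799 against 6349 to 7814 in A/J. None of the 9 passed with limma and Benjamini-Hochberg adjustment. At an unadjusted p of 0.05, 3 did with limma and 1 by the methods' t-test, against 6.23% and 5.84% of all probe sets. With limma 1 gene each of the hepatocyte, bile duct, red blood cell and stellate cell and fibroblast markers also passed unadjusted, and 0 of the endothelial and lymphocyte markers. The sums were 76072 to 79446 against 73446 to 75806 for 5 hepatocyte markers, 3192 to 3375 against 3160 to 3357 for endothelial markers and 3565 to 3807 against 3257 to 3808 for stellate cell and fibroblast markers. For red blood cells they were 978 to 1284 against 1438 to 1746, from 2 markers of which only Alas2 was bright. Of the bile duct and of the lymphocyte markers only 1 each was bright, with sums of 72.9 to 111 against 93.0 to 167 and of 146 to 159 against 114 to 176. No marker was at 0, and their part in the values of the 6 genes was not tested. In whole liver, fewer cells of a type and less RNA per cell cannot be told apart.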

How the data were processed

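Liver RNA of A/J and A/J-12SM mice was hybridized to 6 arrays, 3 per strain. The authors deposited intensity values on a linear scale, 1 per probe set and array, and the submitters' processing notes name MAS5. The sources used here give neither its version nor a scaling target. Strain and replicate came from the sample labels. Of 45101 deposited probe sets, 64 array controls were left out. Log2 signals were quantile normalized and compared with limma 3.58.1 in R 4.3.3 (lmFit, eBayes with a trend on signal), without covariates. The Benjamini-Hochberg adjustment ran over 45037 probe sets, with a threshold of 0.05. P-values measure only the spread between arrays of combined RNA. Quantile normalization would remove a true overall difference between strains.

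Gene names came from the platform annotation, updated through a GRCm38.p6 table, which also gave positions; 34741 of 34945 probe sets with 1 gene matched, 932 name several genes and 9160 none. A gene outside the 6 was read by the brightest of its probe sets on average. Named were the 6 genes with all their probe sets, the 3 nearest measured genes beyond them on each side with any measured in between, the gene of each partner list with the largest bright difference (or up to 2 that passed), and the 5 genes most like Iah1. The members and lists were chosen with earlier results of these data known. Promoter sequences came from RefSeq. The limma step was tested on simulated data with 200 changed probe sets. At bright probe sets, 10.2%, 59.2% and 87.8% of simulated log2 differences of 0.5, 1 and 2 passed. Of all simulated calls, 10.6% were at unchanged probe sets. A difference that did not pass is therefore not shown to be absent. Alternatives were other scalings, an offset of 9.20 (the 20th percentile of the signals), leaving out probe sets below the 40th percentile, 1 prior variance, a replicate block, the methods' t-test, all probe sets of a gene averaged, and each array left out. The study chose its array genes by fold change, so counts from the test of strain means do not show how its own array rule performed. The number of arrays limits the precision. Summaries used Python 3.11.15 and figures matplotlib 3.10.9.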

Additional observations from a re-analysis of the deposited data

How the results depend on the processing

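Signals as deposited, centred on the median, scaled to 1 trimmed mean or given an offset left the same 4 probe sets of the 6 genes passing (Iah1 1429119_at and 1454898_s_at, Ywhaq 1437608_x_at and 1436846_x_at). No call of them changed direction under an alternative. Over all probe sets 25 passed, with 47 from the deposited signals. With 1 prior variance in place of a trend, 0 of the 19 probe sets and 1 of all passed, and the methods' t-test after Benjamini-Hochberg adjustment gave 0 and 1; without adjustment it gave 10, 2630 and, for the 16 nearest genes, 3. The call at Cd36, the only 1 among the partner genes, became 0 under median centring, 1 prior variance and the adjusted t-test. Leaving out 1 array gave 3 to 4 probe sets of the 6 genes passing (3 without A/J replicate 2, when Ywhaq 1436846_x_at was lost). Of all probe sets 6 to 23 passed (6 without A/J replicate 2, 23 without A/J-12SM replicate 3, and 11 to 16 without any other). Among partner genes 0 to 1 passed (1 only without A/J-12SM replicate 1). The strains did not overlap at 11 to 14 of the 19 with an array left out. Fewer arrays separate more easily, and the share over all probe sets is not given for them. This count therefore cannot be set beside that of all 6 arrays. Below an adjusted p of 0.05 fell 5 of the 19 with dim probe sets left out, the added one being Ywhaq 1460621_x_at, while over all probe sets kept 31 did. The deviations of same-numbered arrays of the strains had correlations of -0.06, 0.09 and 0.16. Those of differently numbered arrays ran from -0.23 to 0.15. With 3 arrays per strain these values cannot decide whether the numbers pair the arrays. With a replicate block 5 of the 19 and 28 of all passed. Brightness limits the dim Cpsf3 probe set 1437328_x_at, whose difference was 0.55, or -0.03 without A/J replicate 2. The causes of these changes were not tested. No probe set named several of the genes, so that alternative gave no value.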
